A study of Mus musculus with 6 samples.

Results

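The histone genes were the non-control probes of the array whose gene name starts with Hist1h, Hist2h, Hist3h or Hist4h, or with H2af, H1f or H3f. This rule found 67 of the 41174 probes, for 47 of the 29742 gene names of the array. By class, 13 probes of 9 genes were H1, 26 probes of 18 genes H2A, 10 probes of 8 genes H2B, 9 probes of 5 genes H3 and 9 probes of 7 genes H4. The replication-dependent histones made up 45 of the probes, the replacement variants 18 and the germ line histones 4. The accessions of 51 probes were found in RefSeq, where each belonged to a histone gene. A probe is called bright below when its mean log2 intensity over both dyes and the 6 arrays was above 6, the level the study used for its own gene lists. There were 50 bright and 17 dim histone probes.

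The RNA came from primary mouse embryonic fibroblasts of day 15 embryos on a mixed genetic background, either wild type or homozygous for an in-frame deletion of part of the helicase domain of Wrn. Wrn is the mouse homologue of the gene mutated in the premature ageing disorder Werner syndrome, and the deletion was made in the germ line, so every cell of the mutant cultures carried it. Treated cells received 0.5 mM H2O2 for 1 hour and were harvested after 24 hours in fresh medium. On 2 arrays H2O2-treated wild type cells (Cy5) were set against untreated wild type cells (Cy3), on 2 arrays H2O2-treated mutant cells (Cy5) against untreated mutant cells (Cy3), and on 2 arrays untreated cells of the 2 genotypes were set against each other. The labels describe the arrays of a pair as biological replicates. No array had a dye swap. The labels name total RNA, whereas the methods of the study name cytoplasmic RNA. In such bulk RNA, fewer cells expressing a gene and less RNA per cell cannot be told apart.

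Histones are the proteins around which nuclear DNA is wound. H2A, H2B, H3 and H4 form the core of the nucleosome, and the linker histone H1 binds where the DNA enters and leaves it. Replication-dependent histone genes lie in clusters, are transcribed mainly in S phase and give mRNAs that end in a stem-loop rather than a poly(A) tail, whereas replacement variants such as H2afz, H3f3a and H1f0 give polyadenylated mRNAs throughout the cell cycle. H2A and H2B genes often lie head to head and share the DNA between their start sites as a promoter. The primer used to label the RNA was not given in the sources used here, and because histone genes of a class are alike in sequence, a probe may bind the mRNA of several of them. The probe sequences were not used here.

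The sequences upstream of 5 members show what the histone promoters held. They are those of 3 H2B genes, an H2A gene and an H1 gene whose values the comparisons below turn on. Each runs 5′ to 3′ to the base before the RefSeq start site (GRCm38.p6, coding strand), up to 250 bases or to the start site of a neighbouring gene, and capitals mark the CCAAT box (CCAAT), the TATA box (TATAAA) and the octamer (ATTTGCAT) on either strand, which share no letters. The octamer is an element that H2B promoters are known for. The 5 windows were chr13:22035644-22035820 on the plus strand for Hist1h2bk (now H2bc12), chr13:21721794-21722043 on the plus strand for Hist1h2bm (now H2bc14), chr13:23934157-23934406 on the minus strand for Hist1h2ba (now H2bc1), chr13:21753913-21754075 on the minus strand for Hist1h2ak (now H2ac15) and chr13:23738557-23738806 on the plus strand for Hist1h1c (now H1f2).
Hist1h2bk: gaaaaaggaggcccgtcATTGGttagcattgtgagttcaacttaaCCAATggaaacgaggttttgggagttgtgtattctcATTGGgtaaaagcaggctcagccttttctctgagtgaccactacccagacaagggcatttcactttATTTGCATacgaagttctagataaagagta
Hist1h2bm: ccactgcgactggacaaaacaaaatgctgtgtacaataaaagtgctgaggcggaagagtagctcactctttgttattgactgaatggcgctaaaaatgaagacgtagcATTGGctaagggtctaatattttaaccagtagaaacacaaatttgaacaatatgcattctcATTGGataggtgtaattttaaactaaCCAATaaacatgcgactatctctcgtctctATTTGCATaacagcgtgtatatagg
Hist1h2ba: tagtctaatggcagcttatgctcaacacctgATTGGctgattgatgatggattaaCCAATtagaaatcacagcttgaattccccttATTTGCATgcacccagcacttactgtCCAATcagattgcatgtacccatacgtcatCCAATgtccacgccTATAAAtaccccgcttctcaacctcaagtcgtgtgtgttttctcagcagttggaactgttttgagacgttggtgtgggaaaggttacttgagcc
Hist1h2ak: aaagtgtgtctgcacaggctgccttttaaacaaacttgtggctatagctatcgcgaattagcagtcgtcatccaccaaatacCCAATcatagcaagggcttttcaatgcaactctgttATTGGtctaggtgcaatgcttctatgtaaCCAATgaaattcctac
Hist1h1c: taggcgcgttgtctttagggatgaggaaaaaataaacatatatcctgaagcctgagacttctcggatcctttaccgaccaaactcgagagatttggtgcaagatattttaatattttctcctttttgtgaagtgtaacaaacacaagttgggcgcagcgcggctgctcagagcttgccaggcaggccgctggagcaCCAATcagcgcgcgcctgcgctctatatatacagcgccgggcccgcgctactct

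Of the 40 members with a current RefSeq symbol, 36 had an upstream sequence, in 37 windows. Motifs were counted over the full 250 bases, also where a printed sequence stops at a neighbouring start site, so Hist1h2bk, whose printed stretch holds no TATAAA, is among those with one. CCAAT stood in 30 of these 37 windows and in 33.8% of the 32851 windows of all genes. TATAAA stood in 16 of the 37 windows and in 12.4% of all. The octamer stood in 12 of the 37 and in 1.6% of all, in 5 of 7 H2B windows, 6 of 13 H2A windows, 0 of 9 H1 windows and 0 of 4 H4 windows. In Hist1h2bk and Hist1h2bm the octamer began at position -30 and -25 from the start site, and in Hist1h2ba at -164. The start site of Hist1h2bk lay 178 bases from that of H2ac12, an H2A gene, and that of Hist1h2ak 164 bases from that of H2bc15, an H2B gene. Hist1h2ba and Hist1h2aa, both histones of the male germ line, faced each other across 281 bases. These matches describe the letters only.

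The arrays differed in quality. The scanner software marked between 0.4% (mutant replicate 1) and 22.6% (wild type replicate 2) of the spots as outliers, and such spots were left out of the fit. It marked 19 histone probes on wild type replicate 2, 15 on mutant replicate 2 and between 1 and 10 on the other arrays, so some ratios below rest on 1 array. Signals were well above background for 75.8% to 90% of spots in Cy3 and 41.5% to 69.2% in Cy5, with mutant replicate 2 lowest in Cy5. The precision is limited by the 2 arrays of each comparison. The 4 Wrn probes were dim, and as their place relative to the in-frame deletion was not known they checked nothing about the genotype labels. The brightest of them gave log2 ratios of 0.53 and 0.20 between untreated mutant and wild type cells (adjusted p = 0.153), and the dimmest was called lower in mutant cells (adjusted p = 0.0111) with Cy5 not well above background on either array, and stood at 0.17 in Cy3 (adjusted p = 0.921). All 8 fibroblast marker genes on the array were well above background in all 12 readings (6 arrays, 2 dyes), against 0 of 4 endothelial, 0 of 2 epithelial, 1 of 5 macrophage, 3 of 5 skeletal muscle and 2 of 7 germ cell markers.

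In wild type cells, the probes that fell after H2O2 were those of linker histones and H2B. A total of 5 probes fell at an adjusted p below 0.05 in limma, those of the linker histones Hist1h1d, Hist1h1b and H1f0 and of the core histones Hist1h2bk and Hist3h2bb, by between 2.43-fold and 3.98-fold. No histone probe rose. The classes depended on the marked spots: with these kept, 12 probes passed, among them the H2A genes Hist1h2ak, Hist1h2ai and Hist1h2af (adjusted p = 0.0293, 0.0368 and 0.0427), the H4 gene Hist1h4f (adjusted p = 0.0412) and 2 probes of H3f3a (adjusted p = 0.0417 and 0.0434), while H1f0 no longer passed (adjusted p = 0.0836). Beyond these calls the ratios of bright probes lay mostly below 0, with a median of -0.77 (log2, treated over untreated) in 44 histone probes and -0.03 in all bright probes. These 5 were out of 61 histone probes tested, where 0.414% of the 40303 probes of the whole array fell and 0.422% rose.

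Hist1h1d, a linker histone of dividing cells, gave ratios of -2.12 and -1.86 on the 2 wild type arrays, a mean of -1.99 (SE 0.20, adjusted p = 0.0364). Hist1h1b, another of them, gave -2.31 and -1.61, a mean of -1.96 (SE 0.28, adjusted p = 0.0498). H1f0, the linker histone that accumulates in cells that stop dividing, gave -1.68 and -1.27 at its called probe (mean -1.48, SE 0.20, adjusted p = 0.0474), -0.72 and -0.75 at its brightest probe, and -1.07 at the probe with a single value. All 3 H1f0 probes were thus on the same side of 0, while 2 dim Hist1h1d probes stood close to it, at -0.18 and 0.12. The H2B gene Hist1h2bk gave -1.38 and -1.30 (mean -1.34, SE 0.16, adjusted p = 0.0364), and its other probe -1.48 on a single array. Hist3h2bb, an H2B gene outside the main cluster, gave -1.30 and -1.26 (mean -1.28, SE 0.15, adjusted p = 0.0364). The pairs of arrays lay closer together for these H2B probes than for the called H1 probes.

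Of the 44 bright probes with a wild type value, called ones included, 40 were below 0 and 4 above, the latter a probe each of H3f3a, H2afz, H2afy2 and H3f3b. Hist1h2bm gave -1.13 and -1.10 (adjusted p = 0.0504), and the H2A genes Hist1h2af and Hist1h2ak gave means of -1.0 and -1.67 (adjusted p = 0.0524 and 0.0557), the second on 1 array. Hist1h1a reached -2.82 on replicate 1, whereas its spot on replicate 2, marked as an outlier, read -0.32, so its size is not settled by these arrays. H4 probes ranged from -0.98 for Hist1h4f to -0.40 for Hist1h4i with a median of -0.72 in 6 bright probes. Of the 30 bright histone probes with values on both arrays, 28 were below 0 on both, where 37.2% of all such probes were, and 8 were at least 2-fold lower, where 4.08% were. At least 2-fold higher were 0 of the 30, against 1.27%. Those 8 were Hist1h1b, Hist1h1d, Hist1h1t, H1f0, H1fx, Hist1h2bk, Hist1h2bm and Hist3h2bb, with no H2A, H3 or H4 probe among them. Hist1h2ak and Hist1h2ai had a marked spot on replicate 2, and with it kept they gave -1.67 and -1.44, and -1.34 and -1.12, so the absence of H2A rests on the spots left out. At an unadjusted p below 0.05, 31 of 61 histone probes were lower and 2 higher. Of all probes, 19.9% passed that level and 9.89% were lower at it.

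**Figure D1:**
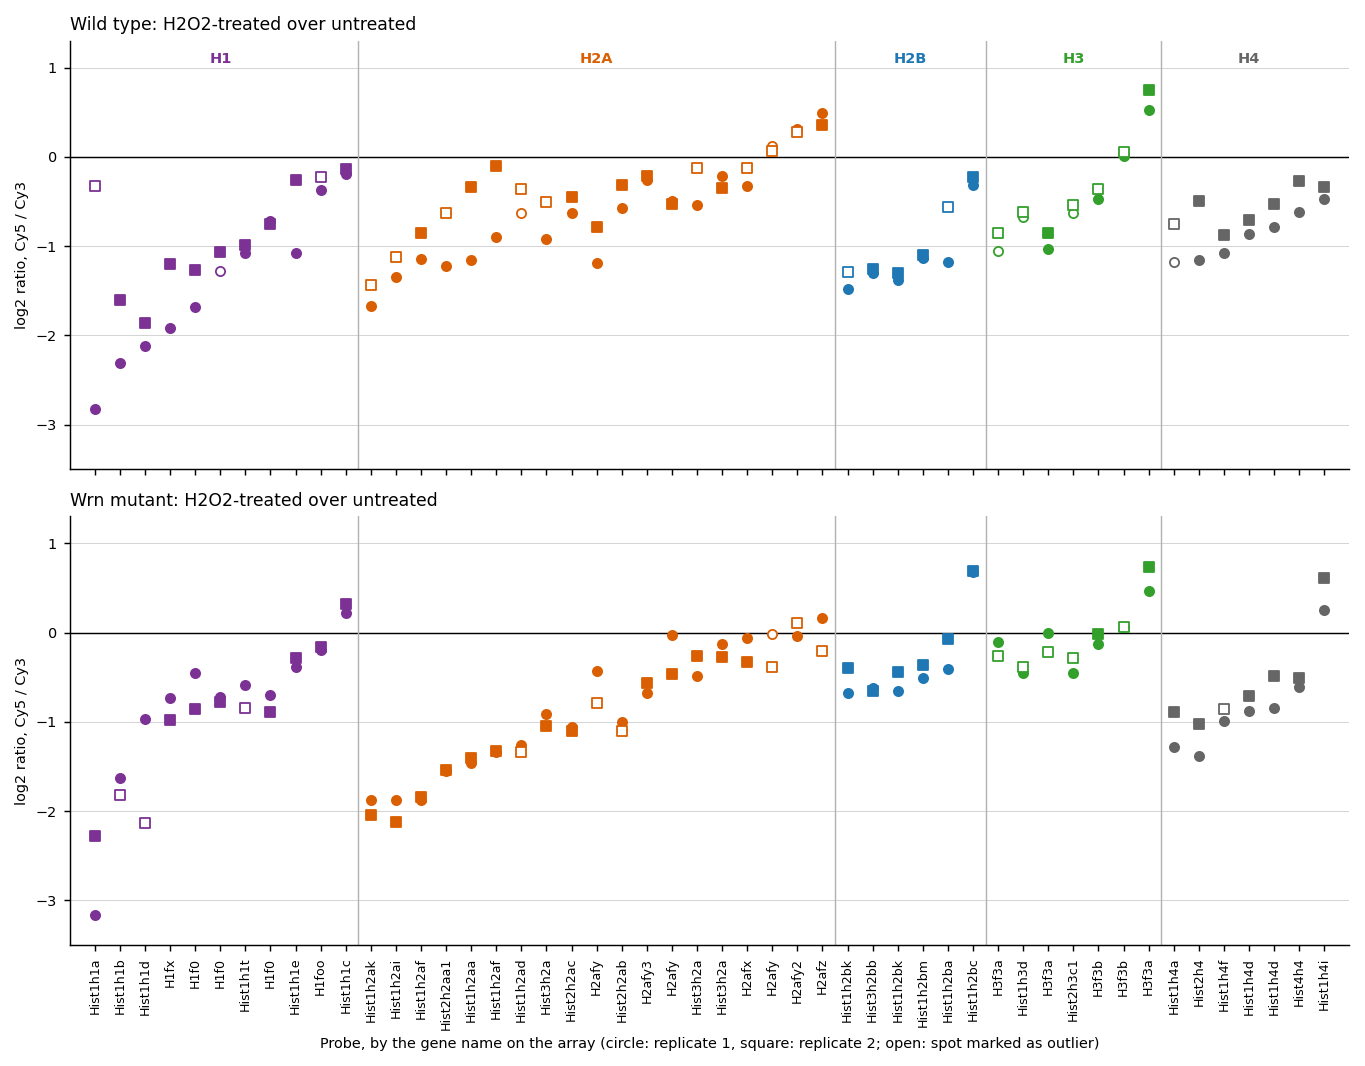
Log2 ratios of H2O2-treated over untreated cells for the 50 bright histone probes, 1 column per probe in order of class and mean, wild type arrays above and mutant arrays below (circles replicate 1, squares replicate 2, open symbols spots marked as outliers). The H2A probes reached lower in mutant cells (to -2.0 as a mean) than in wild type cells, and the H2B probes lower in wild type cells, and Hist1h2bc, Hist1h1c and Hist1h4i lay above 0 on both mutant arrays.

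Which wild type probes passed depended on the arrays in the fit. Without either wild type treatment array, or either mutant treatment array, 0 of the 5 calls were made, and without either of the untreated mutant against wild type arrays 31 were made. With the 2 wild type arrays alone 33 histone probes passed, and with the study's thresholds on those arrays (2-fold, intensity above 6, adjusted p below 0.005) 15 of 61 were lower, against 3.32% of all probes. For the other counts of this paragraph no share of all probes is given, so they are not set against the whole array.

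In mutant cells, replication-dependent H2A probes had the lowest median H2O2 ratio and H2B probes stood nearer to 0, although with marked spots kept the replication-dependent H1 median was -1.55 and that of H2A -1.30. No histone probe passed the test across all probes (0 of 66 tested, 0% of the 41052 probes of the array, smallest adjusted p of a histone probe 0.118). At an unadjusted p below 0.05, 27 histone probes were lower and 5 higher. Of all probes, 12% passed that level and 5.97% were lower at it. The median of the bright histone probes was -0.59, with 0.00 for all bright probes. Below 0 on both arrays were 31 of 35 bright histone probes, against 36.8% of all, and 10 of the 35 were at least 2-fold lower, against 3.02% (2-fold higher 0 of 35, against 0.46%).

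The H2A genes were close together on the mutant arrays. Hist1h2ai gave -1.87 and -2.12 (mean -2.0, SE 0.20, adjusted p = 0.118), Hist1h2ak -1.88 and -2.04 (mean -1.96, SE 0.20, adjusted p = 0.118) and Hist1h2af -1.87 and -1.84 (mean -1.86, SE 0.17, adjusted p = 0.118). The brighter Hist1h2af probe gave -1.34 and -1.32. Hist2h2aa1 stood at -1.54 and Hist2h2ac at -1.08 as means, but a dim probe of Hist2h2aa1 stood at 0.49. Of the 10 probes at least 2-fold lower in mutant cells, 7 were H2A, namely both Hist1h2af probes, Hist1h2aa, Hist1h2ai, Hist1h2ak, Hist2h2aa1 and Hist2h2ac. The others were Hist1h1a (-3.17 and -2.28) and the H4 genes Hist1h4a (-1.29 and -0.89) and Hist2h4 (-1.39 and -1.03). With the 2 mutant arrays alone 27 probes passed the test, and with the study's thresholds on those arrays 12 of 66 were lower, against 1.28% of all probes. No share of all probes is given for the counts that passed the test with fewer arrays. Without either untreated mutant against wild type array, 27 passed with the remaining 5 arrays.

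The classes were ordered differently in the 2 genotypes. The wild type median of the bright replication-dependent H2A probes was -0.73 and the mutant median -1.26, whereas the bright H2B probes had medians of -1.23 (wild type) and -0.49 (mutant). All bright H2A probes, variants included, stood at -0.53 and -0.99, and the bright replication-dependent H2B probes at -1.28 and -0.54. H1 probes stood at -1.07 and -0.75, the replication-dependent ones of them at -1.96 and -0.97, and H4 probes at -0.72 and -0.80. The H1 values depended on the marked spots. With these kept, the replication-dependent H1 medians were -1.57 (wild type) and -1.55 (mutant), and those of all bright H1 probes -1.17 and -0.75. The wild type minus mutant response was below 0 in 6 of 6 bright H2B probes (-0.95 to -0.64) and in 10 of 11 bright H1 probes, but above 0 in 12 of 17 bright H2A probes, 8 of 10 among the replication-dependent ones, where 55.1% of all bright probes were below 0. In single probes this difference did not pass the test. Across the array 0% of 40267 probes were called. At an unadjusted p below 0.05, 5.95% of all probes passed and 3.32% were lower. Of 61 histone probes, 10 were lower and 3 higher at that level. The largest of these in each class were Hist1h2bc at -0.95 (SE 0.29, adjusted p = 0.733), Hist1h2af at 0.86 (SE 0.24, adjusted p = 0.706), Hist1h1d at -1.02 (SE 0.34, adjusted p = 0.807, the mutant value from replicate 1, where the marked spot of replicate 2 read -2.13 and would make the difference -0.44), Hist1h4i at -0.84 (SE 0.25, adjusted p = 0.719) and H3f3a at -0.94 (SE 0.31, adjusted p = 0.816). The H3f3a value is not from the brightest probe of that gene, which gave a difference of 0.03. On mutant replicate 2 the Cy5 signals of H1fx and of a bright probe each of Hist1h1d, H2afy, Hist1h2bk, Hist1h4d and Hist4h4 were not well above background. Their part in these differences was not tested. With the 4 treatment arrays alone, or without either of the other arrays, 1 histone probe was lower in this difference.

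At a bright probe each of 3 genes the treated over untreated ratios of the genotypes were on opposite sides of 0. The H2B gene Hist1h2bc gave -0.31 and -0.23 in wild type and 0.68 and 0.69 in mutant cells. Its second probe, a dim one, had means above 0 in both genotypes. Hist1h1c, a linker histone found in many tissues, gave -0.19 and -0.14 against 0.22 and 0.32. The H4 gene Hist1h4i gave -0.47 and -0.33 against 0.25 and 0.62. These 3 were chosen because both wild type arrays lay on one side of 0 and both mutant arrays on the other. Their pairs of arrays could therefore not overlap, and the share of all probes that met this rule was not counted. The difference between the genotypes did not pass the test (adjusted p = 0.733, 0.866 and 0.719).

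**Figure D2:**
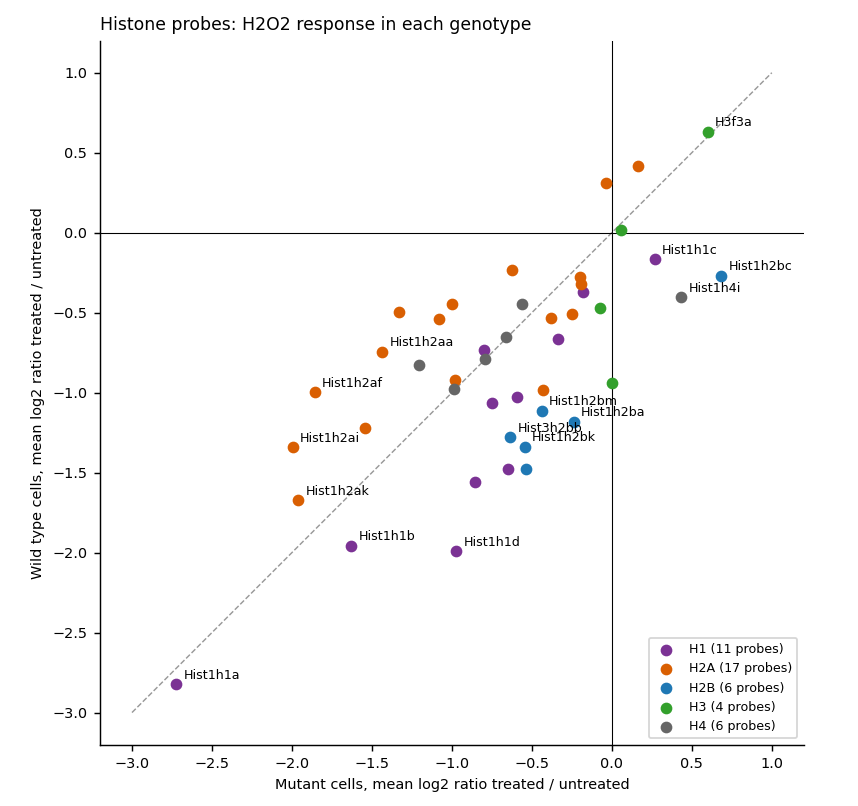
Mean log2 ratio of treated over untreated cells in mutant (x axis) and wild type (y axis) cells, 1 point for each bright histone probe with a value in both, coloured by class, with a dashed line where both are equal. The 6 H2B points lie below the line and 8 of the 10 replication-dependent H2A points above it.

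The 2 head-to-head members had different ratios. Hist1h2ba gave -1.18 in wild type replicate 1 and -0.41 and -0.07 in the mutant arrays, whereas Hist1h2aa, on the other side of the same 281 bases, gave -1.15 and -0.33 in wild type and -1.47 and -1.41 in mutant cells. The wild type minus mutant differences were -0.94 and 0.69 (adjusted p = 0.806 and 0.853). The Hist1h2aa spot of wild type replicate 2, which gave -0.33, was saturated, so the size and direction of its difference are not settled. The brighter Hist1h2af probe was saturated on both wild type arrays, and no other histone probe was saturated on any array.

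Between untreated cells, H2B and H1 mRNAs stood lower in mutant than in wild type cells. The channel labels put wild type cells in Cy5 on these 2 arrays, while the study's own table treats Cy5 over Cy3 as mutant over wild type. The direction printed here is that of the study's table, and each sign of these ratios would turn with the labels. Under it, 21 of 65 histone probes were lower in mutant cells and 0 higher, where 9.76% of the 41099 probes were lower and 10.2% higher. By class these were 8 H1, 7 H2B, 2 H2A, 2 H3 and 2 H4 probes. Of 36 bright histone probes with values on both arrays, 16 were at least 2-fold lower as a mean and below 0 on both. Of all such probes 9.25% were. The images of these arrays were processed on other days than those of the treatment arrays, but each array carries both genotypes. In a fit of single channels with a term for the dye, 8 histone probes were lower with the dyes of the study's table and 0 with those of the labels.

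A second reading of the same genotype difference does not depend on that direction. On the treatment arrays the Cy3 channel holds untreated wild type cells on 2 arrays and untreated mutant cells on the other 2, so mutant minus wild type can be read in 1 dye, after scaling between arrays. In it, all bright probes had a median of -0.22, histone probes -0.63, and 39 of 44 bright histone probes were below 0. Of 61 histone probes 5 were lower, against 0.256% of all probes, and 0 higher, against 0.201%. They were Hist1h2bc, Hist1h1c, Hist1h2bm, Hist1h4i and Hist1h2bk. All 5 were also lower on the ratio arrays in the direction of the study's table. Over the 42 bright histone probes with both readings the correlation was r = 0.805 and 38 had the same sign, and over all 16807 bright probes r = 0.723. Probes are not independent samples, so no p is given. For the changed settings that follow, no share of all probes is given. The 5 Cy3 calls became 16 without wild type replicate 1, 9 without wild type replicate 2 and 0 without either mutant array, and with the between-array step left out they became 40.

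Among the H2B genes, Hist1h2bc gave -1.93 and -2.65 on the ratio arrays, 4.89-fold lower (SE 0.20, adjusted p = 0.00133), and -2.92 in Cy3 (7.59-fold, SE 0.38, adjusted p = 0.00441). Hist3h2bb gave -2.10 and -2.03 (adjusted p = 0.000751) and -1.89 in Cy3 (adjusted p = 0.0587). Hist1h2bk gave -1.95 and -1.90 at one probe and -2.18 and -1.89 at the other (adjusted p = 0.00101 and 0.00207), and -2.0 and -2.27 in Cy3 (adjusted p = 0.0403 and 0.0738). These H2B probes were 3.81-fold to 4.89-fold lower on the ratio arrays, with both arrays below 0 for each. Hist1h2bm gave -1.76 on the single array with an unmarked spot (adjusted p = 0.00599) and -2.17 in Cy3 (adjusted p = 0.0352), and Hist1h2ba gave -1.79 and -1.94 (adjusted p = 0.00252) and -1.76 in Cy3 (adjusted p = 0.204). All 6 bright H2B probes were thus called on the ratio arrays. Of the dim H2B probes Hist1h2be was called (adjusted p = 0.0354), but as its Cy5 signal was not well above background on either array no fold can be given. The 3 others were not called, among them the second Hist1h2bc probe.

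Among the H1 genes, H1fx, a replacement linker histone, gave -3.13 and -1.43 (mean -2.28, SE 0.38, adjusted p = 0.00852) and -1.89 in Cy3 (adjusted p = 0.0956). Hist1h1d gave -2.33 and -1.82 (adjusted p = 0.00258) and -1.71 in Cy3 (adjusted p = 0.22), and Hist1h1b -2.40 and -1.46 (adjusted p = 0.0083) and -1.16 in Cy3 (adjusted p = 0.485). The dim Hist1h1d probes stood at -0.65, on a single array, and at 0.69 on the ratio arrays. For H1fx and Hist1h1b the 2 arrays were further apart than for the H2B probes above. Hist1h1c gave -1.54 and -1.83 (SE 0.16, adjusted p = 0.00166) and -2.33 in Cy3 (adjusted p = 0.0223). Hist1h1e gave a mean of -1.09 (adjusted p = 0.0248) and -1.11 in Cy3 (adjusted p = 0.331). Hist1h1a gave -2.80 and -0.76 (mean -1.78, adjusted p = 0.0473) but 0.15 in Cy3 (adjusted p = 0.934), so the readings of this gene differed in sign. The Cy5 signal of Hist1h1a was below its Cy3 signal on all 6 arrays, marked spots included, whichever cells were in that channel.

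The other classes had fewer calls. Hist1h4i, in H4, gave -1.01 and -1.29 (adjusted p = 0.00645) and -2.07 in Cy3 (adjusted p = 0.0424), and the other called H4 probe was a dim one of Hist4h4, at least 1.35-fold lower (adjusted p = 0.0343), as Cy5 was not well above background there. In H2A, H2afx, the variant phosphorylated at DNA breaks, gave -1.04 and -1.44 (adjusted p = 0.00907) and -1.87 in Cy3 (adjusted p = 0.187), and Hist1h2ak gave -1.15 and -0.57 (adjusted p = 0.0324) and -0.54 in Cy3 (adjusted p = 0.714). In H3, Hist1h3d gave -1.26 and -1.03 (adjusted p = 0.0153) and had no Cy3 value. The replication-dependent H2A probes as a group stood close to 0 on the ratio arrays, with a median of -0.19 in 11 bright probes, where the H2B median was -1.98 and the H1 median -1.62.

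**Figure D3:**
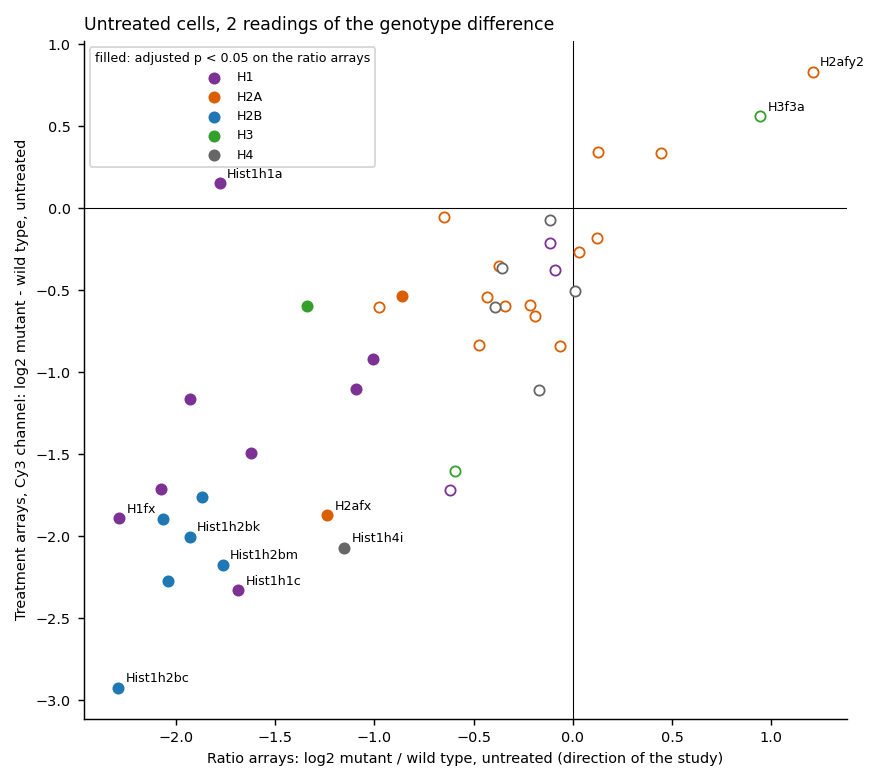
Untreated mutant over wild type cells on the ratio arrays (x axis, log2, direction of the study's table) against mutant minus wild type in Cy3 of the treatment arrays (y axis, log2), 1 point for each of 42 bright histone probes, filled where the ratio arrays gave an adjusted p below 0.05. Of the 42 points 38 have the same sign on both axes, the H2B points lie at the lower left, and Hist1h1a lies below 0 on x and above 0 on y.

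The levels in single channels set the treatment response beside the genotype difference. For Hist1h2bc the log2 intensity was 11.04 and 10.81 in untreated and 10.73 and 10.58 in treated wild type cells, and 7.89 and 8.10 in untreated and 8.57 and 8.79 in treated mutant cells. The genotypes were far apart whatever the treatment. For Hist1h2bk it was 8.94 and 8.62 in untreated and 7.56 and 7.33 in treated wild type cells, and 6.86 and 6.70 in untreated and 6.21 and 6.27 in treated mutant cells. Untreated mutant cells lay below treated wild type cells for Hist1h2bk, though these 2 are read in different dyes. Hist1h2bm had the same order, with 7.62 and 8.32 in treated wild type and 6.87 and 6.95 in untreated mutant cells. For the H2A gene Hist1h2af the values were 11.63 and 12.13, 10.49 and 11.28, 11.14 and 11.31, and 9.27 and 9.47 in the same order of groups, so treated mutant cells were lowest. In treated cells (Cy5), mutant minus wild type had a median of -0.82 in 44 bright histone probes and -0.13 in all bright probes, and 38 of the 44 were below 0. The test called 0 of 61 histone probes there, against 0.184% of all probes lower. At an unadjusted p below 0.05, 17 histone probes were lower and 0 higher, where 9.11% of all probes passed and 6.32% were lower. The lowest were Hist1h2bc at -1.97 (adjusted p = 0.0712) and Hist1h1c at -1.90 (adjusted p = 0.106). Without wild type replicate 1 the test called 9 lower there, and without wild type replicate 2 it called 2. The dye differs between treated and untreated cells on every array, so the 2 cannot be told apart within an array.

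**Figure D4:**
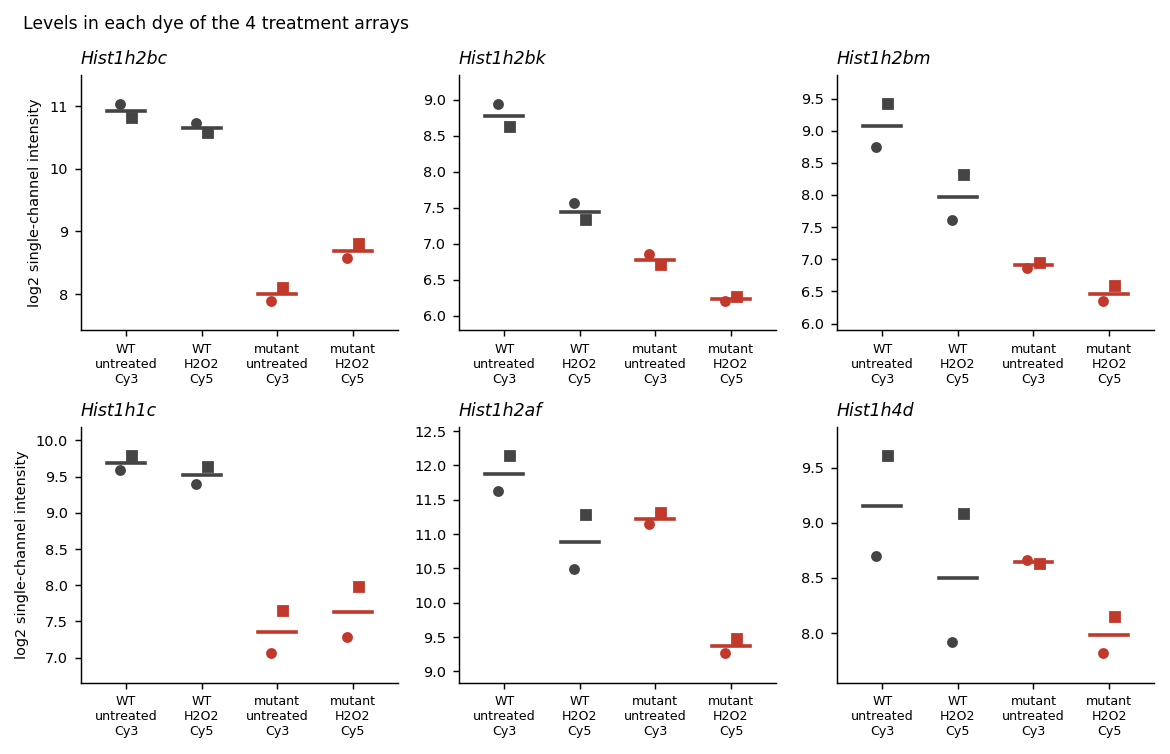
Log2 single-channel intensity of 6 histone probes on the 4 treatment arrays after scaling between arrays, for untreated (Cy3) and treated (Cy5) wild type (grey) and mutant (red) cells, with circles for replicate 1, squares for replicate 2 and a bar at the mean; each panel has its own axis, which does not start at 0. Hist1h2bc, Hist1h2bk, Hist1h2bm and Hist1h1c lie lower in mutant cells with no overlap, whereas Hist1h2af is lowest in treated mutant cells and the genotypes overlap for Hist1h4d.

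Untreated mutant cells were in Cy5 on the ratio arrays by the study's table and in Cy3 on the mutant treatment arrays, which sets the 2 dyes beside each other in the same kind of cells, on different arrays. Cy5 minus Cy3 had a median of -0.25 in 47 bright histone probes and -0.05 in all bright probes, with values below -1 for Hist1h1a (-2.67), Hist1h1b (-1.15) and Hist1h1t (-1.11). The 6 bright H2B probes lay between -0.66 and 0.19. If the labels were right and the Cy5 cells were wild type, the comparison of wild type cells in both dyes would give a median of -1.07 in histone probes and -0.30 in all. With a dye term, the number of histone probes that fell in wild type cells was 0 with the dyes of the study's table, where the median of the histone probes stayed at -0.51. With the dyes of the labels 2 probes rose, Hist1h2bc (3.40, adjusted p = 0.0407) and the dim Hist1h2be (2.06, adjusted p = 0.0382), and the median turned to 0.50. With those dyes 1 probe fell, of H3f3a (-0.94, adjusted p = 0.0384). Its ratio was the same with the dyes of the study's table and without a dye term, so no dye correction acted on it.

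The ratios of the replacement variants were less uniform than those of the replication-dependent histones. In wild type cells 10 of 14 bright replacement probes were below 0, with a median of -0.49, and 26 of 26 replication-dependent ones, with a median of -0.88. H2afz, the H2A variant at active promoters, gave 0.49 and 0.35 in wild type cells at its bright probe. H3f3a and H3f3b encode the same H3.3 protein. The brightest H3f3a probe gave 0.52 and 0.74 in wild type and 0.47 and 0.73 in mutant cells (adjusted p = 0.274 in wild type), but another gave -1.03 and -0.85 in wild type cells, and the third -1.06 and -0.85 with marked spots kept. The probes of H3f3a therefore disagreed in sign. H3f3b gave means of -0.47 and 0.01 at its bright probes in wild type cells, and -1.34 on a single ratio array at the first of these (adjusted p = 0.0232), with -0.60 in Cy3 (adjusted p = 0.739). Of the macroH2A genes, H2afy gave -1.18 and -0.78 at its brightest probe with wild type values. H2afy3 (now Macroh2a2) gave -0.26 and -0.22 in wild type and -0.68 and -0.56 in mutant cells. H2afy2, whose accession was not found in RefSeq, gave 0.31 on 1 wild type array and 1.21 on 1 ratio array (adjusted p = 0.0529). H2afx gave -0.32 on the wild type array with an unmarked spot and -0.06 and -0.33 in mutant cells. H1fx gave -1.92 and -1.20 in wild type and -0.73 and -0.98 in mutant cells.

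The germ line histones were bright in these fibroblasts, although only 2 of 7 germ cell markers were above background throughout. Hist1h1t, the testis linker histone, gave -1.07 and -0.99 in wild type and -0.59 on the mutant array with an unmarked spot, and -2.36 and -0.88 on the ratio arrays (adjusted p = 0.0231), with -1.49 in Cy3 (adjusted p = 0.36). H1foo, the linker histone of the oocyte, gave -0.37 on wild type replicate 1, -0.20 and -0.16 in mutant cells, and -1.35 and -0.67 on the ratio arrays (adjusted p = 0.0235), with -0.92 in Cy3 (adjusted p = 0.558). Together with Hist1h2aa and Hist1h2ba, all 4 were below 0 in wild type, mutant and genotype means. Binding of other histone mRNAs to these probes was not tested.

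A further 6 probes had no unmarked wild type spot. With the marked spots kept, Hist1h2ad gave -0.63 and -0.36 in wild type and -1.26 and -1.34 in mutant cells, a lower range than in wild type cells. Hist1h4a gave -1.18 and -0.75 in wild type cells. Hist1h3d gave -0.68 and -0.62 in wild type and -0.45 and -0.38 in mutant cells, and Hist2h3c1 -0.63 and -0.54 in wild type and -0.45 and -0.28 in mutant cells, so the replication-dependent H3 genes with bright probes had values below 0 throughout. The other 2 were an H3f3a probe, given above, and an H2afy probe at 0.12 and 0.06. The 17 dim probes showed no such shift, with medians of 0.12 (wild type) and 0.13 (mutant) and a range of -0.54 to 0.84 in wild type cells, and at dim probes a ratio understates a change.

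No gene of the lists that act on histones passed the test after H2O2. Of all probes, 0.414% fell and 0.422% rose in wild type cells, and 0% passed in mutant cells. These counts of 0 thus stood near the background. Of 19 genes for histone mRNA transcription and processing, 0 passed in either H2O2 comparison (medians 0.13 in wild type and -0.16 in mutant cells). On the ratio arrays 2 of the 19 were lower and 3 higher, against 9.76% and 10.2% of all probes. Cstf2 and Ncbp2, which act in RNA 3′ end formation and cap binding, were lower (-1.12 and -1.33, adjusted p = 0.00824 and 0.0431), Ncbp2 on 1 array. Lsm10, a subunit of the U7 particle that cuts histone mRNA, was higher (1.91 and 1.60 by array, adjusted p = 0.00147). So were Coil and Pou2f1, the factor that binds the octamer (1.10 and 0.65, adjusted p = 0.0143 and 0.0273). In Cy3 0 genes of this list were called, against 0.256% of all probes lower and 0.201% higher. There Cstf2 stood at -1.56, Ncbp2 at -0.41, Lsm10 at 0.95, Coil at -0.19 and Pou2f1 at 0.08. The readings of Coil thus differed in sign. Of 22 histone chaperone and assembly genes 0 passed after H2O2 (medians 0.15 and -0.05). On the ratio arrays 3 were lower, among them Anp32e (-1.18) and Asf1b (-0.81), and 3 higher, among them Cabin1 (0.91), where 9.76% and 10.2% of all probes were lower and higher, so these counts stood near the background. Each of these genotype values has the direction of the study's table.

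S phase genes, with which replication-dependent histones are normally transcribed, had ratios on the other side of 0 from the histones in wild type cells. Of 28 measured, 24 had ratios above 0 after H2O2, with a median of 0.56. The test called 0 of them, where 0.414% of all probes fell and 0.422% rose. In mutant cells the median was 0.08 in 30 genes. Between untreated cells, 7 of 30 were lower in mutant cells on the ratio arrays and 0 higher, against 9.76% and 10.2% of all probes, with a median of -0.44. Rrm2, a subunit of ribonucleotide reductase, gave -1.45 and -1.66 (adjusted p = 0.00302), and the cyclin gene Ccne2 a mean of -1.52 (adjusted p = 0.0144). In Cy3 all 28 S phase genes measured were below 0, with a median of -0.84, and 0 were called, against 0.256% of all probes lower. In untreated cells S phase genes and histones thus stood on the same side. In wild type cells after H2O2 the median of the fibroblast markers was -1.06, with 4 of 5 below 0 and 0 called (Col3a1 -2.32 on 1 array, adjusted p = 0.0548), and -0.06 in 7 genes in mutant cells. On the ratio arrays 4 of 7 fibroblast markers were higher in mutant cells (median 1.03), against 10.2% of all probes, 1 of 7 germ cell markers was lower, and 0 of 5 macrophage, 5 muscle, 2 epithelial and 4 endothelial markers were called. Their part in the histone values was not tested.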

How the data were processed

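Scanner files of 6 two-colour Agilent arrays were used, as deposited by the authors, with each dye's mean intensity per spot and local background. The deposited files also held the log10 ratio of Feature Extraction, background-subtracted and lowess-normalised, and the authors deposited a series matrix of log2 ratios made with limma by background subtraction and loess. Those deposited ratios correlated with the ratios computed here at r of 0.99949 or more, had medians near 0 on each array and lacked 2466 values on replicate 4 of the genotype arrays.

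Background subtraction and loess within each array gave the ratios (limma 3.58.1, R 4.3.3, and version 1.17.8 of data.table), control spots having weight 0, and spots flagged as outliers in either dye were then set to missing. Spots of a probe were averaged. One linear model with empirical Bayes moderation over the 6 arrays gave each comparison, with a call at an adjusted p below 0.05. The Benjamini-Hochberg adjustment ran over those of the 41174 probes that had a value in the comparison. Genotypes were also compared within a dye of the 4 treatment arrays after loess and Aquantile scaling. Samples whose spots were missing drop out of that probe's fit. Replicates were separate biological samples by the labels. The number of arrays limits the precision.

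The members, the lists (histone mRNA processing, chaperones, S phase genes, replacement variants, germ line histones and cell type markers) and the tests were chosen with earlier results of these data known. Genes were named by rule: per class the brightest gene and the gene with the largest change, members called (up to 10 per comparison and direction), replacement and germ line histones, and called genes of the other lists. Dim members are given by range. Other members were named after their values were seen. A gene with several probes was mostly described by its brightest. Its other probes were named in part, so probes not named may differ in sign. Promoter windows came from RefSeq (GRCm38.p6), searched with Python 3.11.15 and pandas 2.3.3, and figures were drawn with matplotlib 3.10.9. The fit was tested on simulated data. Alternatives were normexp background (offset 50), outliers kept or given weight 0, the Feature Extraction log ratio, the authors' own ratios, each comparison on its own arrays, dim probes left out, the study's thresholds, each array left out, a replicate block, a dye term and 1 probe per gene.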

Additional observations from a re-analysis of the deposited data

Results flagged for a closer look

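Of the bright histone probes, 22 had unmarked spots on all 4 treatment arrays and were examined. In 3 of them both wild type arrays lay on one side of 0 and both mutant arrays on the other. The share of all bright probes that met this rule was not counted, so the 3 are not shown to be particular to histones. The wild type minus mutant response was -0.95 for Hist1h2bc, -0.43 for Hist1h1c and -0.84 for Hist1h4i on the log2 scale, and the fit over all probes gave adjusted p-values of 0.733, 0.866 and 0.719. All 3 were below 0 on both wild type arrays and above 0 on both mutant arrays, and all 3 were also among the 5 histone probes lower in untreated mutant cells in Cy3. Both readings share the Cy3 channels of the treatment arrays, so they are not independent.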

How the results depend on the processing

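The number of histone probes that fell in wild type cells, 5 as reported, was 19 with normexp background, 12 with outlier spots kept or with the authors' table, 3 with the Feature Extraction log ratio or with outlier spots at weight 0 in the loess curve, an alternative chosen after seeing the data, 33 on its own arrays, 14 with only probes well above background, 0 with the study's thresholds, 0 with the dyes of the study's table as a term, 1 with those of the labels (where 2 rose), and 0 to 31 with each array left out in turn. In mutant cells, 0 as reported, it was 27 on its own arrays and 0 to 27 with each array left out. Between untreated cells, 21 as reported, it was 11 with the Feature Extraction log ratio, 9 on its own arrays, 7 with the study's thresholds, 8 and 0 with the 2 dye terms, and 14 to 28 with an array left out. The difference between the responses gave 1 on the 4 treatment arrays and 0 to 1 with an array left out. In Cy3, 5 as reported, normexp gave 0, outliers kept 2, no between-array step 40 and an array left out 0 to 16. In Cy5, 0 as reported, no between-array step gave 35 and an array left out 0 to 9.

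For the counts above, the share of all probes called at each setting is not given, so they are not set against the whole array. Medians over all histone probes moved as follows. In wild type cells the median was -0.50 as reported, 0.50 with the dyes of the labels as a term and -0.59 to -0.29 with an array left out. In mutant cells it was -0.36 as reported, -0.47 with the Feature Extraction log ratio, -0.56 with only probes well above background, 0.52 with the dyes of the labels and -0.49 with 1 probe per gene, and -0.42 to -0.28 with an array left out. Between untreated cells it was -0.44 as reported, -0.22 with normexp background and -0.57 to -0.35 with an array left out. For the difference between the responses it was -0.08 as reported and -0.10 to 0.04 with an array left out. With no between-array step it was -1.58 in Cy3 and -1.48 in Cy5. With an array left out it was -0.84 to -0.53 in Cy3 and -0.85 to -0.50 in Cy5. Signs turned with the dyes of the labels as a term for Hist1h1b (0.55), Hist3h2bb (1.68), Hist1h1d (0.63) and Hist1h2bk (1.51) in wild type cells and for Hist1h3d (1.06) between untreated cells, and with the dyes of the study's table for Hist1h1a (0.64) between untreated cells. The cause was not tested.

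Whether the replicate numbers pair the samples was not settled. The deviations of same-numbered wild type and mutant treatment arrays correlated at -0.04 over 29913 probes, so the ratios showed no shared deviation. Cultures prepared together need not share one, so this cannot decide the pairing. With the replicate number as a block, 0 histone probes fell in wild type cells, 13 were lower between untreated cells and 0 were lower in Cy3. Dim probes and the lower signal in Cy5 limit what the ratios can show.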
